A study of Homo sapiens and Canis lupus familiaris with 27 samples.

Results

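The response of CT1258, a prostate carcinoma cell line of the dog, to PDA-66 was set against that of the human prostate carcinoma cell line LNCaP, gene by gene. Genes were joined by identical symbol. Of the 16028 genes listed for CT1258 and the 23708 listed for LNCaP, 14436 symbols stood in both tables, out of 25300 symbols in either, and 8433 of them had enough counts in each cell line to be tested. A further 1598 joined symbols had enough counts in LNCaP alone, 837 in CT1258 alone and 3568 in neither cell line. Of the 27 samples of the series, the 18 samples of CT1258 and LNCaP were used, which form 6 groups of 3 replicates. CT1258 and LNCaP cells had been exposed to PDA-66 at 15 μM for 12 h or for 24 h, and control cells to the vehicle, 0.15% DMSO, for 24 h. One set of DMSO samples per cell line served both incubation periods, so that the 12 h cells have no control of their own incubation time. LNCaP was derived from a lymph node metastasis of a human prostate adenocarcinoma and CT1258, also named TihoDProAdcarc1258, from a canine prostate adenocarcinoma, and each was grown in its own medium. Species, tumor, medium, mapping program and gene models differ together between the cell lines and cannot be told apart. The study's methods describe the replicates of a condition as biological and independent of each other.

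PDA-66 is an indolylmaleimide, a maleimide joined to an indole ring, and it depolymerizes microtubules. Without microtubules the mitotic spindle cannot attach to the chromosomes, the spindle assembly checkpoint stays active, and dividing cells are held in mitosis. Transcripts of mitotic regulators, such as cyclin B1, are most abundant around G2 and mitosis. Their level in a culture can change with the share of cells in these phases or with the RNA per cell. Amino acid shortage and other stresses act through the transcription factor ATF4, and sterol shortage through the SREBP factors, on largely separate sets of genes.

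RNA had been sequenced as poly(A)-selected single reads, and a CT1258 sample held 7203534 to 20976950 counts in all and a LNCaP sample 11923105 to 14741883. The CT1258 controls had 2.64 times the mean total of the CT1258 PDA-66 samples. The common biological coefficient of variation, the spread between replicates beyond counting error, was 0.10 in CT1258 and 0.24 in LNCaP. Replicate 2 of the LNCaP PDA-66 12 h group stood apart. Its log2 deviations from the mean of the other replicates of its group had an SD of 0.914. In the other LNCaP samples this SD was 0.198 to 0.556. The coefficient of variation of LNCaP without replicate 2 of the 12 h group was 0.121. Results that rest on this library are given with and without it. LNCaP had 7 of 11 epithelial markers at 10 or more CPM (counts scaled to a common library size) in its controls, with EPCAM at a mean of 109 CPM and the luminal gene KLK2 read throughout. For CT1258, 4 of the 11 epithelial markers were in the table, and each of them was under 1 CPM in all 9 libraries. The summed level of these epithelial markers was at most 0.298 CPM in any CT1258 library, and EPCAM was at 0 in every CT1258 control. The labelled carcinoma origin of CT1258 was therefore not visible in the epithelial markers that its table holds. Of 8 mesenchymal and stromal markers in the CT1258 table (12 listed), 4 were at 10 or more CPM in its controls, with CDH2 at a mean of 515 CPM, and the other 4 were under 1 CPM in all 9 libraries. In the LNCaP controls 3 of 12 reached 10 CPM, with FN1, which the CT1258 table does not hold, at a mean of 329 CPM. Of 24 luminal and androgen receptor genes in the CT1258 table (26 listed), 13 reached 10 CPM in its controls, compared with 25 of 26 in LNCaP. In cultures sequenced in bulk, fewer cells of a type or phase and less RNA per cell cannot be told apart.

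About as many joined genes differed in their response between the cell lines as did not after 12 h, and fewer were called after 24 h. The response of a gene is its log2 fold change between PDA-66 and DMSO within a cell line, and the response difference is the response of CT1258 minus that of LNCaP, so that a positive value means a larger rise or a smaller fall in CT1258. With edgeR's quasi-likelihood test of this interaction and a Benjamini-Hochberg adjusted p-value under 0.05, 4251 of 8433 genes differed after 12 h (50.4%), with 1859 (22.0%) higher and 2392 (28.4%) lower in CT1258. After 24 h, 1992 genes differed (23.6%), with 978 (11.6%) higher and 1014 (12.0%) lower. The difference was at least 1 on the log2 scale for 2520 of these genes after 12 h and 989 after 24 h. A missing call does not show an equal response, since the 95% interval of the difference lay within -1 and 1 for 33.8% of all tested genes after 12 h and 44.1% after 24 h. Without the LNCaP 12 h replicate 2, 4485 genes differed after 12 h and 4274 after 24 h, of 8461 tested. Taken relative to their own controls, the treated samples of CT1258 lay above those of LNCaP without overlap for 33.8% of all genes after 12 h and 37.3% after 24 h, and below them for 36.0% and 40.6%. All 1992 genes called after 24 h, and 3963 of the 4251 called after 12 h, were called in the same direction without this library, and none in the other direction.

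Most genes with a response difference were called in the canine cell line and not in LNCaP. Fitted within each line, 5923 joined genes (70.2%) changed in CT1258 after 12 h and 730 (8.66%) in LNCaP, and 5302 (62.9%) and 214 (2.54%) changed after 24 h. The LNCaP counts rested on 1 library, since without the LNCaP 12 h replicate 2, 1439 joined genes rose and 1017 fell in LNCaP after 12 h and 1365 and 1037 after 24 h, so that a missing LNCaP call does not show that a gene stayed the same. Among the genes with a response difference, 3437 of 4251 (80.9%) were called in CT1258 only after 12 h and 1688 of 1992 (84.7%) after 24 h, compared with 64.2% and 61.1% of all joined genes. After 12 h, 341 genes (4.04%) changed in the same direction in both lines, 232 (2.75%) upwards and 109 (1.29%) downwards. A further 167 genes (1.98%) changed in opposite directions, with 75 (0.889%) up in CT1258 and down in LNCaP and 92 (1.09%) the other way. After 24 h, 120 genes were shared (1.42%), of which 89 (1.06%) were up and 31 (0.368%) down, and 32 were opposite (0.379%), 17 (0.202%) and 15 (0.178%) in these directions. All opposite genes also passed the test of the difference itself. This adds no separate support, since they were chosen by opposite calls from the same counts. Of the 341 shared genes, 102 still differed in size after 12 h, and 81 of these moved further in LNCaP. Shared genes had to be called in LNCaP, whose replicates spread more, which favored genes with large LNCaP responses. Over all joined genes the median absolute response after 12 h was 0.50 in CT1258 and 0.34 in LNCaP. The counts of shared and opposite genes depended on the LNCaP libraries: without the 12 h replicate 2 there were 1289 shared and 476 opposite genes after 12 h and 1017 and 544 after 24 h. Without any of the 3 LNCaP 24 h samples no gene was called shared or opposite after 24 h, and the cause was not tested. Without LNCaP DMSO replicate 2 or 3, 110 or 89 genes were shared after 12 h, and 4 or 6 after 24 h.

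**Figure D1:**
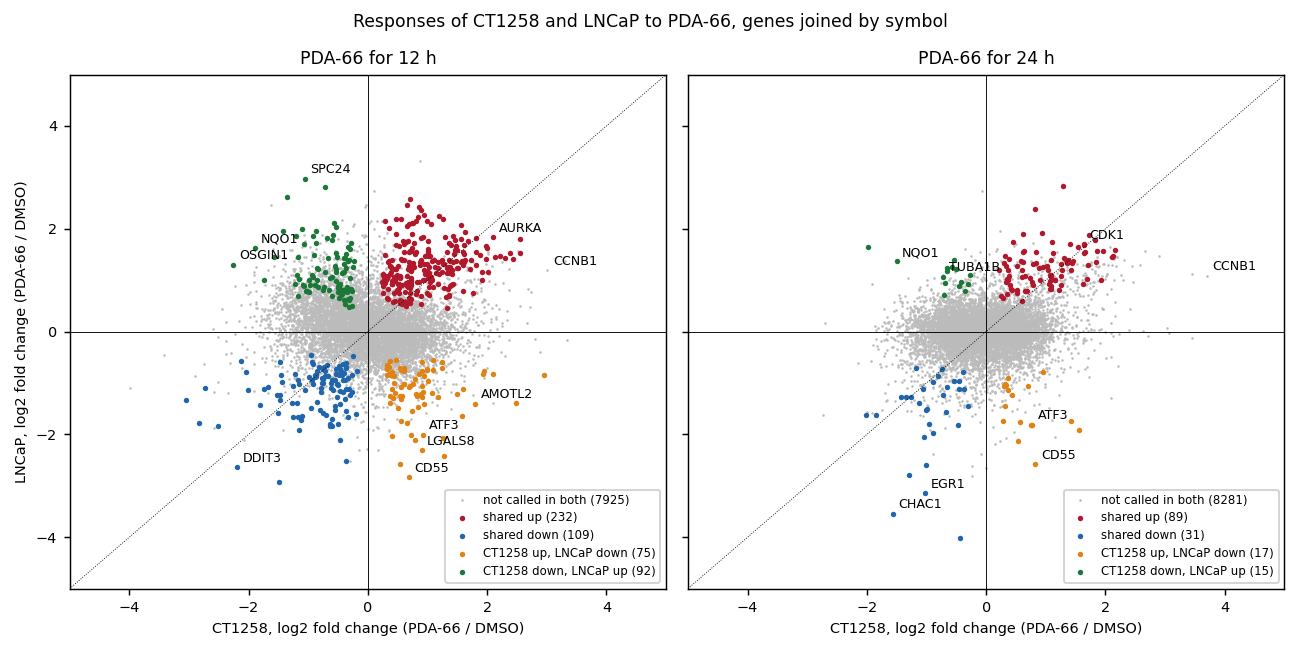
Log2 fold changes (PDA-66 against DMSO) of the 8433 joined genes in CT1258 (x axis) and LNCaP (y axis) after 12 h (left) and 24 h (right). Each point is a gene, the dotted line marks equal responses, and colors mark genes called in both cell lines; the 232 shared up genes of 12 h fill the upper right, the 92 genes that fell in CT1258 and rose in LNCaP the upper left, and KLK2 lies outside the plotted range.

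Across genes, the 2 sets of responses were only weakly related. Spearman's rho over the 8433 genes was -0.15 after 12 h and 0.12 after 24 h, and 0.26 after 12 h without the LNCaP 12 h replicate 2. Genes are not independent replicates, and these values describe the libraries. GC content of the gene moved with the response in CT1258. Over the 7873 genes with a human gene model, CT1258 responses had a rho of -0.639 with the GC content of the human transcript at both times, compared with 0.307 and 0.011 in LNCaP, and -0.184 in LNCaP after 12 h without replicate 2. In the tenth of genes lowest in GC content, the median response of CT1258 after 24 h was 0.47, and in the tenth highest it was -0.59, while the LNCaP medians of all 10 bins lay between -0.0008 and 0.08. After a correction of each library for GC content and length of the human gene, chosen after seeing the data, 3555 genes differed after 12 h and 2419 after 24 h. Of the genes called before and present in this fit, 2457 of 3963 and 1423 of 1865 were called again in the same direction. With this correction the rho between the responses of the 2 lines was 0.11 after 12 h and 0.19 after 24 h, so its sign after 12 h changed. With the CT1258 control counts thinned to the depth of the treated libraries, 4141 genes differed after 12 h and 1916 after 24 h, of 8422 tested. The part of GC content or of library depth in these responses was not tested further. Values with the GC and length correction are given below for discussed genes whose call they changed.

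**Figure D2:**
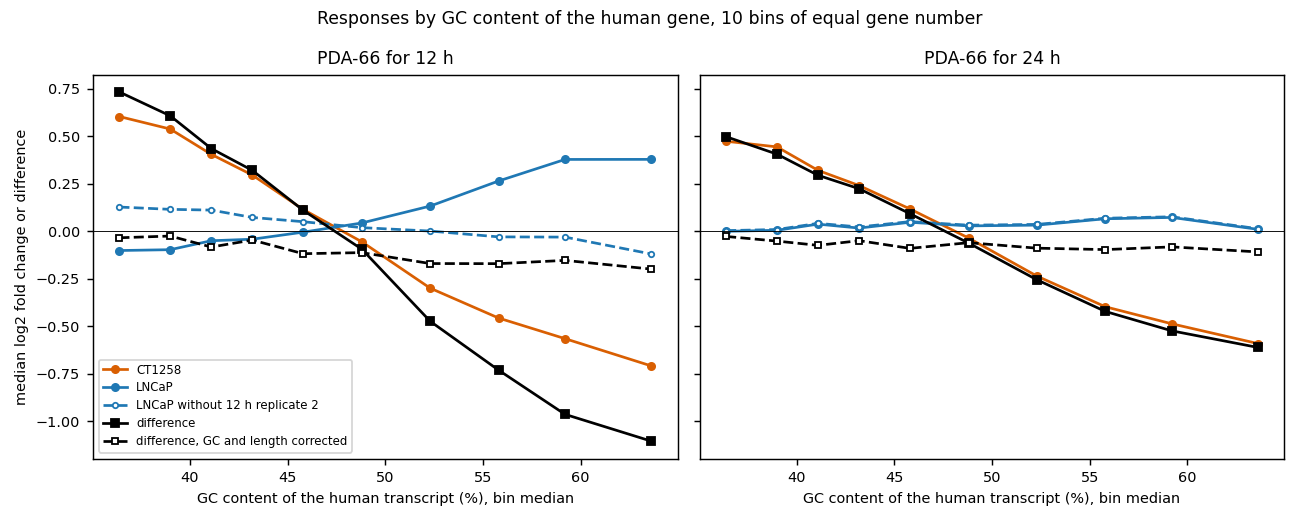
Median log2 fold change of CT1258 and LNCaP, and median response difference, in 10 bins of equal gene number by the GC content (%) of the human transcript, after 12 h (left) and 24 h (right). Before correction the difference fell from 0.73 to -1.10 across the bins after 12 h and from 0.50 to -0.61 after 24 h; after correction (open squares) it stayed between -0.20 and -0.03 in both panels.

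Transcripts of the mitotic machinery rose in both cell lines. Of 24 tested genes (31 listed) of the spindle checkpoint and kinetochore, the structure that joins chromosomes to microtubules, 20 rose in CT1258 after 12 h and 16 in LNCaP, where 34.8% and 5.29% of all joined genes rose. Their median response was 1.35 in CT1258 and 1.30 in LNCaP, compared with -0.01 and 0.07 over all genes. Of 20 tested mitotic kinesins and spindle factors (25 listed), 19 rose in CT1258 and 11 in LNCaP, with medians of 1.32 and 1.46, and of 29 regulators of mitotic entry and exit (31 listed) 25 and 20 rose, with medians of 0.89 and 1.39. After 24 h, 20, 19 and 25 members of these lists rose in CT1258 and 4, 4 and 8 in LNCaP, where 31.0% and 1.51% of all genes rose. Without the LNCaP 12 h replicate 2, LNCaP had 21, 19 and 25 risen members after 24 h. The response difference was higher in CT1258 for 2 members of the spindle checkpoint list and lower for 4 after 12 h (25%, compared with 50.4% of all genes), and higher for 2 and lower for 1 after 24 h (12.5%, compared with 23.6%). Without that library 7 were higher and 3 lower after 24 h, and with a correction for GC content, given above, 1 was higher and 7 lower after 12 h. Of the list of mitotic entry and exit, 3 differences were higher and 10 lower after 12 h (44.8%), and 5 and 2 after 24 h (24.1%). Of the kinesin list, 2 were higher and 3 lower after 12 h (25%), and 3 and none after 24 h (15.0%), or 10 and none after 24 h without that library.

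CDK1, the kinase that drives entry into mitosis (chr10:62538089-62554610 on GRCh37), stood at 37.4, 45.4 and 33.3 CPM in the CT1258 controls, 136, 149 and 121 CPM after 12 h and 111, 121 and 128 CPM after 24 h. In LNCaP it stood at 152, 133 and 59.3 CPM in the controls, 499, 279.6 and 436 CPM after 12 h and 326, 422 and 371 CPM after 24 h. In both lines every treated sample was above every control, a separation found for 73.4% of all joined genes in CT1258 and 27.2% in LNCaP after 12 h, and for 66.9% and 45.4% after 24 h. The responses were nearly the same in size, 1.81 and 1.82 after 12 h. Their difference was -0.01 with a 95% interval of -0.82 to 0.80 (adjusted p = 0.99), so that a difference of up to about 0.8 in either direction could not be seen. AURKA, a kinase of spindle assembly, had the largest shared rise of 12 h by the smaller of the 2 responses, 2.10 ± 0.08 (SE) in CT1258 and 1.84 ± 0.36 in LNCaP. It went from 24.1, 25.6 and 24.8 CPM to 107, 106 and 107 CPM in CT1258 and from 59.6, 31.2 and 17.9 CPM to 141, 106 and 141 CPM in LNCaP, without overlap in either line. KIF14, a kinesin of cell division, rose by 1.98 and 1.66 after 12 h (difference 0.32, 95% interval -0.54 to 1.18). KIAA0101, a PCNA-binding factor, rose by 2.56 and 1.80, CDCA2, a phosphatase partner on mitotic chromosomes, by 1.67 and 1.77, and CENPI of the inner kinetochore by 1.63 and 1.93. The reads of KIAA0101 are uncertain, since 1077 of its exon bases overlap another gene model. After 24 h, SPC25 of the NDC80 complex led the shared rises with 1.82 and 1.78, followed by CENPI (1.72 and 1.88), the recombination gene RAD54B (1.63 and 1.68), CDK1 (1.63 and 1.70), the cohesion gene ESCO2 (2.15 and 1.58) and GTSE1 (1.86 and 1.57). RAD54B shares 3511 exon bases with FSBP on the same strand, so its reads are uncertain. UBE2C, which marks mitotic proteins for destruction, rose almost equally in both lines at both times (1.01 and 1.03, then 1.09 and 1.06), and the 95% interval of its difference was -0.55 to 0.51 after 12 h and -0.50 to 0.57 after 24 h. GTSE1, a microtubule-binding protein of G2, had risen less in CT1258 than in LNCaP after 12 h, with a difference of -1.04 (adjusted p = 0.016). After the GC and length correction the 12 h difference of GTSE1 was -0.61 and no longer called, while that of CENPI (-0.92) and of SPC25 (-0.85) was called, each with a smaller rise in CT1258. The third LNCaP control was the lowest of the controls for CDK1, AURKA, KIF14, SPC25 and CCNB1, and without it the LNCaP rises of CDK1 (1.51) and AURKA (1.51) after 12 h were still called. Those of KIF14 after 12 h (1.41, adjusted p = 0.11) and of SPC25 (1.43, adjusted p = 0.077) and CDK1 (1.39, adjusted p = 0.086) after 24 h were not, with edgeR's test and Benjamini-Hochberg adjustment. Without LNCaP DMSO replicate 2, the LNCaP rises after 12 h of CDK1 (1.94, adjusted p = 0.054), AURKA (1.74, adjusted p = 0.08), KIF14 (1.77, adjusted p = 0.082), KIAA0101 (1.80, adjusted p = 0.12) and CENPI (2.12, adjusted p = 0.052) were not called. Without either of these controls, none of the LNCaP rises given for the 6 leading genes of 24 h was called.

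The promoters of mitotic genes often hold the CHR element, a site of the MuvB complexes, and CCAAT boxes, sites of NF-Y. Those of 4 mitotic genes are shown as examples: CDK1, KIF14 and SPC25, which were shared upwards, and CCNB1, which was not. The windows span 250 bases before to 50 after the RefSeq start on GRCh38.p14, and capitals mark each CHR (TTTGAA or TTCGAA on either strand) and CCAAT on either strand.
CDK1 (chr10:60778081-60778380, plus strand): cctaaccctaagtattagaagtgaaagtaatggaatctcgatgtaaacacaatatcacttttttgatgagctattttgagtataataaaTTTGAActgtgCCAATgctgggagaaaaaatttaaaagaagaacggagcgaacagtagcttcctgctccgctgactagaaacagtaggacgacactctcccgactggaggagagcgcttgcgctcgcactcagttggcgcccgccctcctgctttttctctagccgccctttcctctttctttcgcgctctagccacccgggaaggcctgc
KIF14 (chr1:200620702-200621001, minus strand): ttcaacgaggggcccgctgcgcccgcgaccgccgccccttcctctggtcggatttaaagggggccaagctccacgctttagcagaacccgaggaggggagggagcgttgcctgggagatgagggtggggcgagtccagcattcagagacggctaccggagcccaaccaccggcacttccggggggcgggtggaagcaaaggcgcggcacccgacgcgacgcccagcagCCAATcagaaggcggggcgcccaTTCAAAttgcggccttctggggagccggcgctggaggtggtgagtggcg
SPC25 (chr2:168890381-168890680, minus strand): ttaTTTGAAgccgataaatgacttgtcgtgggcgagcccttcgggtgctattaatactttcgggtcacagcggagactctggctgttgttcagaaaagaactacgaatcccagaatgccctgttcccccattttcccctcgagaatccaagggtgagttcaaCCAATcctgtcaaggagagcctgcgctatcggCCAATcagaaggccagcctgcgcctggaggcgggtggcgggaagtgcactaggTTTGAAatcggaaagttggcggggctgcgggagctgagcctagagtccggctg
CCNB1 (chr5:69166900-69167199, plus strand): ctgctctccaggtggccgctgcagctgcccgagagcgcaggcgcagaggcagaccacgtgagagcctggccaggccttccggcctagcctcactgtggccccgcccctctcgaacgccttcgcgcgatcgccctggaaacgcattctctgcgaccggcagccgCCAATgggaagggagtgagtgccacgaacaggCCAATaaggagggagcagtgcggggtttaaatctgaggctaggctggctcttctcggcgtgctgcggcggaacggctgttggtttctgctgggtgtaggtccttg
CDK1 and KIF14 held 1 CHR and 1 CCAAT each in this window, SPC25 held 2 of each, and CCNB1 held 2 CCAAT and no CHR. Of the 232 genes shared up after 12 h, 185 had a promoter in the table, and 56 of these (30.3%) held a CHR, compared with 16.6% of all 27305 promoters and 10.7% of the 6553 promoters of tested genes. Over the lists, a CHR stood in 12 of 18 promoters of the spindle checkpoint list (66.7%), in 13 of 18 of the kinesin list (72.2%) and in 2 of 47 of the replication list (4.26%). A CCAAT box stood in 54.1% of the shared up promoters and 35.7% of all promoters. These are matches of letters and no evidence of binding, and the canine promoters were not analysed here.

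Cyclin B1 had the highest response difference of the mitotic lists after 24 h. CCNB1, whose protein activates CDK1 (chr5:68462962-68474072 on GRCh37), stood at 13.2, 15.4 and 13.2 CPM in CT1258 controls, 107, 109.9 and 120.0 CPM after 12 h and 169.9, 183 and 193 CPM after 24 h. The LNCaP controls already held 223, 101 and 64.9 CPM, and 316, 254 and 320.3 CPM were read after 12 h and 258, 291 and 274 CPM after 24 h. Every treated LNCaP sample was above every control there too, but the controls were spread more than 3-fold and the LNCaP rise of 1.08 missed the threshold (adjusted p = 0.14). In CT1258 the rise was 3.71 ± 0.10, and the response difference was 1.81 ± 0.41 after 12 h and 2.62 ± 0.41 after 24 h (adjusted p = 0.0024 and 5.3e-04). With CCNB1, the spindle factors HMMR (difference 2.33 after 24 h), KIF11 (1.15) and CENPN (1.89) and the cyclin CCNB3 (2.37) also rose more in CT1258. On the other side, PLK1, a kinase of mitotic entry, differed by -1.65 after 12 h but by 0.05 after 24 h, where its rises were 1.13 in CT1258 and 1.08, not called, in LNCaP. CDC20 and ZWINT fell in CT1258 after 12 h (-0.33 and -0.53) and rose in LNCaP (1.39 and 2.03). After the GC and length correction CDC20 had risen in both lines (0.27 and 1.21), as had CCNB1 after 12 h (difference 1.51), and the difference of KIF11 after 12 h was no longer called (0.50). SPC24, a partner of SPC25 in the NDC80 complex, had one of the largest differences after 12 h, -4.03 ± 0.64. Its LNCaP values of 34.2, 163 and 38.5 CPM rested on replicate 2, without which the LNCaP response was 1.86 instead of 2.97 and the difference -2.92.

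Genes of DNA replication and of the G1/S transition rose in both lines, and many of them rose further in LNCaP. Of 58 tested genes (64 listed), 42 rose and 6 fell in CT1258 after 12 h, and 43 rose and none fell in LNCaP. The median response was 0.60 in CT1258 and 1.23 in LNCaP after 12 h, and 0.32 and 1.03 after 24 h. The response difference was called lower in CT1258 for 28 of the 58 genes at either time and higher for 1, compared with 28.4% and 12.0% of all genes called lower, and after the GC and length correction for 36 and 2. Without the LNCaP 12 h replicate 2, 30 were lower after 12 h and 38 after 24 h. MCM2, MCM5 and MCM7 are subunits of the replicative helicase. MCM5 stood at 111, 156 and 125 CPM in CT1258 controls and 90.1, 75.4 and 83.1 CPM after 24 h, and at 59.1, 54.4 and 48.3 CPM and 133, 121 and 127 CPM in LNCaP. The CT1258 samples fell below their controls and the LNCaP samples rose above theirs, without overlap, and the responses were -0.66 and 1.23 (difference -1.90 ± 0.26, adjusted p = 1.8e-04). Without LNCaP DMSO replicate 2 or 3 this LNCaP rise of MCM5 was not called. MCM7 was opposite in the same way after 24 h (-0.45 and 0.89), and MCM2 fell in CT1258 (-0.53) with 1.15, not called, in LNCaP. RRM2, a subunit of the enzyme that makes deoxynucleotides, rose in both lines, from 119, 137 and 124 CPM to 160.5, 189 and 167 CPM in CT1258 and from 124, 156 and 58.2 CPM to 348, 402 and 383 CPM in LNCaP. Its rise of 0.45 in CT1258 was smaller than that of 1.74 in LNCaP (difference -1.30, adjusted p = 0.012). CDC6, which loads the helicase, rose by 0.29 and 1.33 (difference -1.03, adjusted p = 0.0037). Under the GC and length correction MCM7 was no longer called opposite and CDC6 no longer shared after 24 h, but both differences remained called (-0.94 and -1.29). The exception was RPA2, a subunit of the single-strand binding protein, which rose more in CT1258 (difference 0.60 after 12 h and 0.52 after 24 h). The 33 genes of the Fanconi and homologous recombination list had medians of 0.96 and 1.15 after 12 h and 0.98 and 0.97 after 24 h, with 5 higher and 8 lower differences after 12 h and 4 of each after 24 h. After the GC and length correction these counts were 2 and 13, and 3 and 10. Before it, 39.4% and 24.2% of this list were called, compared with 50.4% and 23.6% of all genes.

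**Figure D3:**
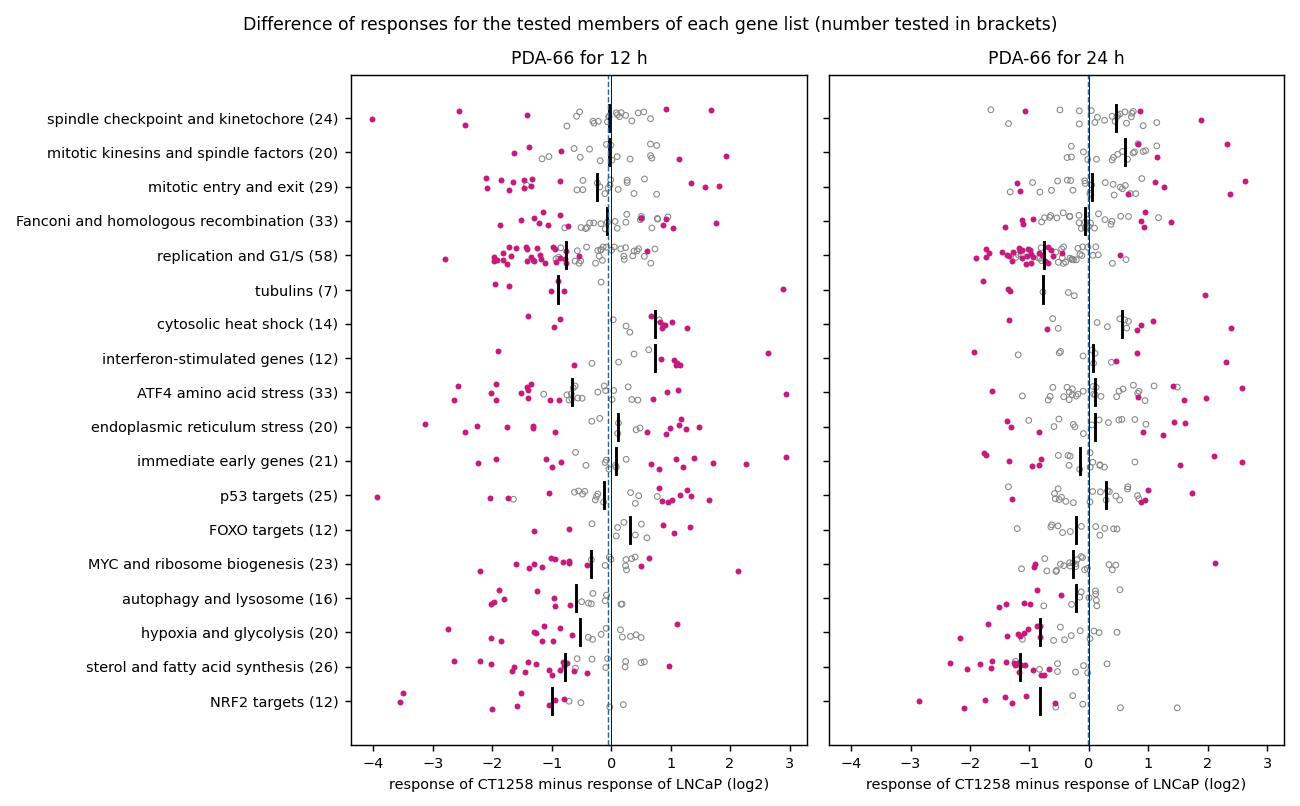
Response difference (CT1258 minus LNCaP, log2) of each tested member of 18 gene lists after 12 h (left) and 24 h (right). Filled points passed the interaction test, open points did not, black bars are list medians and the dashed line is the median of all 8433 genes; the bars of the replication, sterol, NRF2 and glycolysis lists lie left of 0 at both times, and those of the spindle and kinesin lists lie near 0 after 12 h and right of 0 after 24 h.

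Stress genes that respond to ATF4 were lower after PDA-66 in both cell lines, with fewer calls in LNCaP. Of 33 tested genes of the ATF4 and amino acid stress list (40 listed), 30 fell in CT1258 after 12 h and 28 after 24 h, compared with 35.4% and 31.8% of all genes. In LNCaP, 5 fell after 12 h and 4 after 24 h, compared with 3.37% and 1.03% of all genes, and 16 and 26 fell without the LNCaP 12 h replicate 2. The medians were -1.45 in CT1258 and -0.87 in LNCaP after 12 h, and -0.89 and -1.15 after 24 h. Of the differences, 12 were lower and 4 higher in CT1258 after 12 h, and 1 was lower and 5 were higher after 24 h (13 and 3, and 5 and 11, without that library). With all libraries the called shares of 48.5% and 18.2% were below the 50.4% and 23.6% of all genes. LNCaP DMSO replicate 1 was low for some of these genes, since ASNS, which makes asparagine, had 125, 393 and 478 CPM in the 3 LNCaP controls and CHAC1 5.85, 30.0 and 47.0 CPM.

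DDIT3, a stress transcription factor also named CHOP, stood at 59.6, 94.5 and 62.1 CPM in the CT1258 controls, 15.3, 13.3 and 18.7 CPM after 12 h and 30.9, 38.7 and 38.4 CPM after 24 h. In LNCaP it stood at 48.2, 99.2 and 122 CPM, 11.5, 19.2 and 12.5 CPM and 15.6, 12.3 and 16.5 CPM. All treated samples were below all controls of their line, and the CT1258 values of 24 h lay between those of 12 h and those of the controls. The falls were -2.19 and -2.64 after 12 h, with no difference called (0.45, 95% interval -0.41 to 1.31), and -1.0 and -2.60 after 24 h, where LNCaP had fallen further (difference 1.6, adjusted p = 0.011). DDIT3 shares 355 exon bases with MARS1 on the opposite strand. CHAC1, which degrades glutathione and is a target of ATF4 (chr15:41245160-41248710 on GRCh37), was called in both lines after 24 h. CT1258 held 57.9, 37.6 and 46.1 CPM against 101, 194 and 124 CPM in its controls, and LNCaP 2.03, 2.46 and 2.60 CPM against the controls given above. The responses were -1.56 and -3.54 (difference 1.98, adjusted p = 0.048). TSC22D3, the glucocorticoid-induced leucine zipper, had responses of -1.49 in CT1258 and -2.93 in LNCaP after 12 h, and of -1.29 and -2.79 after 24 h, falling further in LNCaP each time (difference 1.43 and 1.5). SESN2 (-1.47 and -1.24 after 12 h) and GADD45A (-1.06 and -1.13 after 24 h), both growth arrest genes, fell in both lines, and their differences had 95% intervals of -0.88 to 0.43 and -0.47 to 0.60. HERPUD1, of the endoplasmic reticulum stress response, fell in both lines after 12 h (-1.28 and -1.39). After 24 h it overlapped its controls in CT1258, with 229.5, 362 and 338 CPM against 241, 283 and 228 CPM, and remained lower in LNCaP (-1.14), and this difference of 1.44 was called (adjusted p = 0.0015). The lysosomal enzyme IDUA and the repressor NFIL3 completed the 6 leading shared falls of 12 h, with -1.26 and -1.66 and with -1.53 and -1.23. IDUA shares 534 exon bases with SLC26A1, and after the GC and length correction its 12 h difference was called (1.30). Without LNCaP DMSO replicate 2 or 3 the LNCaP falls of SESN2 and NFIL3 after 12 h were not called. The same held for TSC22D3 and GADD45A after 24 h.

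EGR1, an immediate early transcription factor, was opposite after 12 h and shared after 24 h. CT1258 held 266, 237 and 248 CPM in the controls, 345, 294 and 370.1 CPM after 12 h and 134, 112 and 122 CPM after 24 h, and LNCaP 22.1, 41.1 and 24.6 CPM, 8.43, 11.8 and 15.6 CPM and 4.33, 2.46 and 3.06 CPM. CT1258 was first above and then below its controls, while LNCaP was below them at both times. The differences were 1.72 ± 0.33 and 2.11 ± 0.35 (adjusted p = 9.2e-04 and 8.2e-04). DUSP4, a phosphatase of MAP kinases, was called down in both lines at both times, with -1.26 and -1.28 after 24 h. Its LNCaP fall of 24 h was not called without LNCaP DMSO replicate 2 or 3.

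Among the genes that rose in CT1258 and fell in LNCaP was the stress factor ATF3, a member of the ATF4 list that otherwise mostly fell in CT1258. ATF3 (chr1:212738676-212794119 on GRCh37) stood at 23.9, 29.3 and 24.0 CPM in the CT1258 controls, 49.4, 41.6 and 56.4 CPM after 12 h and 42.3, 45.2 and 44.1 CPM after 24 h. In LNCaP it went from 75, 165 and 175 CPM to 38.2, 29.3 and 35.5 CPM and 39.9, 39.6 and 38.4 CPM. No treated sample overlapped the controls of its line, and the difference was 2.94 ± 0.33 after 12 h and 2.58 ± 0.33 after 24 h (adjusted p = 2.0e-05 and 1.1e-04). The promoters of CHAC1 and ATF3 are shown because the 2 genes were called down together in LNCaP after 24 h and went apart in CT1258. The windows are as above, and capitals mark the CARE letters (TGATG, any 1 base, then AA, on either strand), a site of ATF4 with C/EBP factors.
CHAC1 (chr15:40953221-40953520, plus strand): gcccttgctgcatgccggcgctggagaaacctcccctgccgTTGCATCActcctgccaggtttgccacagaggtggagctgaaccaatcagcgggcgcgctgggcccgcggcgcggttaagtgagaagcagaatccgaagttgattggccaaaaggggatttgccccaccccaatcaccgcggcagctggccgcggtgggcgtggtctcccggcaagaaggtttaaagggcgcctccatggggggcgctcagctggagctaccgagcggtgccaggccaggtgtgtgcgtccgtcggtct
ATF3 (chr1:212565157-212565456, plus strand): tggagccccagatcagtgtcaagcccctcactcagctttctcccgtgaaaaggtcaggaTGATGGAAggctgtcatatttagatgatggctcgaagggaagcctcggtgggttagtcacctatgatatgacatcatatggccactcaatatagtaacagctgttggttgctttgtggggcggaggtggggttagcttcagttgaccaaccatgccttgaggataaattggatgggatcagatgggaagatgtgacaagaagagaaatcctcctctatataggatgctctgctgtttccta
Both windows held 1 such match. It stood in 5 of 23 promoters of the ATF4 list (21.7%) and in 3.67% of all promoters, and windows of other start sites of these genes were not analysed here.

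CD55, a membrane protein that protects cells from complement (chr1:207494864-207560149 on GRCh37), had the highest response difference at both times by the rule for named genes. It stood at 123, 96.7 and 116 CPM in the CT1258 controls and 190.4, 193 and 213 CPM after 24 h, and at 23.2, 105 and 106 CPM in the LNCaP controls and 12.7, 12.7 and 13.6 CPM after 24 h. The first LNCaP control was low, but all treated LNCaP samples were below it. The difference was 3.52 ± 0.53 after 12 h and 3.41 ± 0.53 after 24 h (adjusted p = 1.7e-04 and 5.1e-04). Without LNCaP DMSO replicate 3 the LNCaP falls of CD55 (-2.30, adjusted p = 0.13), ATF3 (-1.61, adjusted p = 0.083) and CHAC1 (-2.92, adjusted p = 0.10) after 24 h were not called, while the 24 h differences of CD55 (3.12) and ATF3 (2.38) still were. LGALS8, a galectin, rose in CT1258 (0.75) and fell in LNCaP (-1.82) after 24 h, and its reads are uncertain because 2095 exon bases are shared with HEATR1. CCNG1, a cyclin induced by p53, went in opposite directions at both times, with 84.4, 81.1 and 81.6 CPM against 146, 169.7 and 162 CPM in CT1258 and 524, 595 and 498 CPM against 302, 325 and 308 CPM in LNCaP (difference 1.74 ± 0.15, adjusted p = 1.4e-06). AMOTL2, a regulator of the Hippo pathway, led this class after 12 h with 1.80 and -1.40, followed by the cytoskeletal gene ADD3 (1.5 and -1.22), ANKRD29 (1.17 and -1.27), the nuclear RNA MALAT1 (1.6 and -1.11) and IMPACT (1.01 and -0.96). The LNCaP calls of AMOTL2 (adjusted p = 0.064 and 0.074), ADD3 (0.15 and 0.13) and IMPACT (0.15 and 0.14) were lost without LNCaP DMSO replicate 2 or 3, and that of MALAT1 without replicate 2 (0.052). Without LNCaP DMSO replicate 2 or 3 the 167 opposite genes of 12 h became 22 and 23. The 32 opposite genes of 24 h became 1 each time. The 24 h LNCaP falls of CCNG1, LGALS8, ANKRD29 and C7orf63 were then not called either. After the GC and length correction CCNG1 was opposite after 24 h only, with differences of 1.05 and 1.33. MALAT1 shares 8121 exon bases with its antisense RNA TALAM1. C7orf63 belonged to the class at both times (0.57 and -1.76 after 24 h).

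NQO1, a quinone reductase controlled by NRF2 (chr16:69740899-69760571 on GRCh37), led the opposite genes of the other direction at both times. CT1258 controls held 2667, 2624 and 2571 CPM, which went to 717, 721 and 686 CPM after 12 h and 790.0, 1029 and 955 CPM after 24 h. LNCaP controls held 32.9, 25.1 and 19.8 CPM, which went to 77.5, 86.8 and 75.3 CPM and 66.1, 71.5 and 62.4 CPM. All treated samples lay below the controls in CT1258 and above them in LNCaP. The difference was -3.51 ± 0.21 after 12 h and -2.87 ± 0.21 after 24 h (adjusted p = 4.2e-08 and 7.8e-07), and -3.75 and -3.06 after the GC and length correction. Without LNCaP DMSO replicate 2 or 3 the LNCaP rise of NQO1 was called after 12 h only, while both differences stayed called. Of 12 NRF2 targets tested (19 listed), 10 fell in CT1258 after 12 h and 9 after 24 h, compared with 35.4% and 31.8% of all genes, while in LNCaP 2 and 1 rose, compared with 5.29% and 1.51%, and none fell. Their median response was -0.78 and -0.85 in CT1258 and 0.44 and 0.25 in LNCaP. The difference was lower in CT1258 for 8 members after 12 h and 7 after 24 h, compared with 28.4% and 12.0% of all genes, and higher for none, or for 2 after 24 h without the LNCaP 12 h replicate 2. OSGIN1, an oxidative stress growth inhibitor, differed by -3.55 ± 0.37 after 12 h, with LNCaP at 12.7, 29.9 and 14.6 CPM and a LNCaP response of 1.30, or 0.82 without replicate 2. The call of this LNCaP rise was lost when any single LNCaP control was left out, while the difference of OSGIN1 stayed called. OSGIN1 shares 457 exon bases with MLYCD and NQO1 575 with a long noncoding RNA gene.

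Some tubulin genes, which encode the protein that PDA-66 acts on, also went apart. TUBA1B stood at 1971, 2679.6 and 2031 CPM in the CT1258 controls and 1023, 1096 and 1076 CPM after 12 h and 1522, 1237 and 1293 CPM after 24 h. In LNCaP it stood at 469, 370.3 and 266 CPM, 576, 806 and 669.5 CPM and 785, 751 and 777 CPM. CT1258 lay below and LNCaP above its controls, with a difference of -1.96 ± 0.25 after 12 h and -1.79 ± 0.25 after 24 h (adjusted p = 5.4e-05 and 2.6e-04). TUBB went the same way after 24 h (-0.27 and 1.09), but was no longer called opposite after the GC and length correction (difference -1.19). Of the 7 tubulins tested (20 listed), 5 fell and 1 rose in CT1258 after 12 h and 3 fell and 2 rose after 24 h, while in LNCaP 1 fell and 2 rose after 12 h and none fell and 3 rose after 24 h. Over all genes, 35.4% fell and 34.8% rose in CT1258 after 12 h, and 31.8% and 31.0% after 24 h. In LNCaP these shares were 3.37% and 5.29%, and 1.03% and 1.51%. The difference was lower in CT1258 for 5 and higher for 1 after 12 h, with a median of -0.90, and lower for 3 and higher for 1 after 24 h. These are 85.7% and 57.1% of the tubulins, compared with 50.4% and 23.6% of all genes. With the GC and length correction, 2 were lower after 12 h, with a median of -0.34, and 3 after 24 h. The exception was TUBB4A, which rose in CT1258 (0.78) and fell in LNCaP (-2.10) after 12 h. Tubulin genes may share reads with near-identical copies, and TUBA1B also shares 1571 exon bases with its antisense gene, so these values are uncertain. The other opposite genes of this direction after 24 h were SCFD2 (-0.70 and 0.71), SERPINE2, a protease inhibitor (-0.69 and 0.95), MCM5 and KANK2 (-0.66 and 1.17). Without LNCaP DMSO replicate 2 or 3 the 24 h LNCaP rises of TUBA1B and of these genes were not called. After 12 h, ZDHHC12, XRCC1, WDR34 and CARHSP1 followed NQO1 and OSGIN1. For ZDHHC12 and WDR34, LNCaP replicate 2 held 220.4 and 394 CPM against at most 66.2 and 115 CPM in the other LNCaP 12 h samples, and without it the LNCaP responses were 0.94 and 1.08 instead of 1.86 and 1.99. XRCC1, a scaffold of DNA repair, changed less without it, from 1.46 to 1.06, as did CARHSP1, from 1.10 to 0.90, which shares 916 exon bases with PMM2. The LNCaP rises of XRCC1 and CARHSP1 were not called without LNCaP DMSO replicate 2 or 3. Those of ZDHHC12 and WDR34 were lost when any single LNCaP control was left out.

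**Figure D4:**
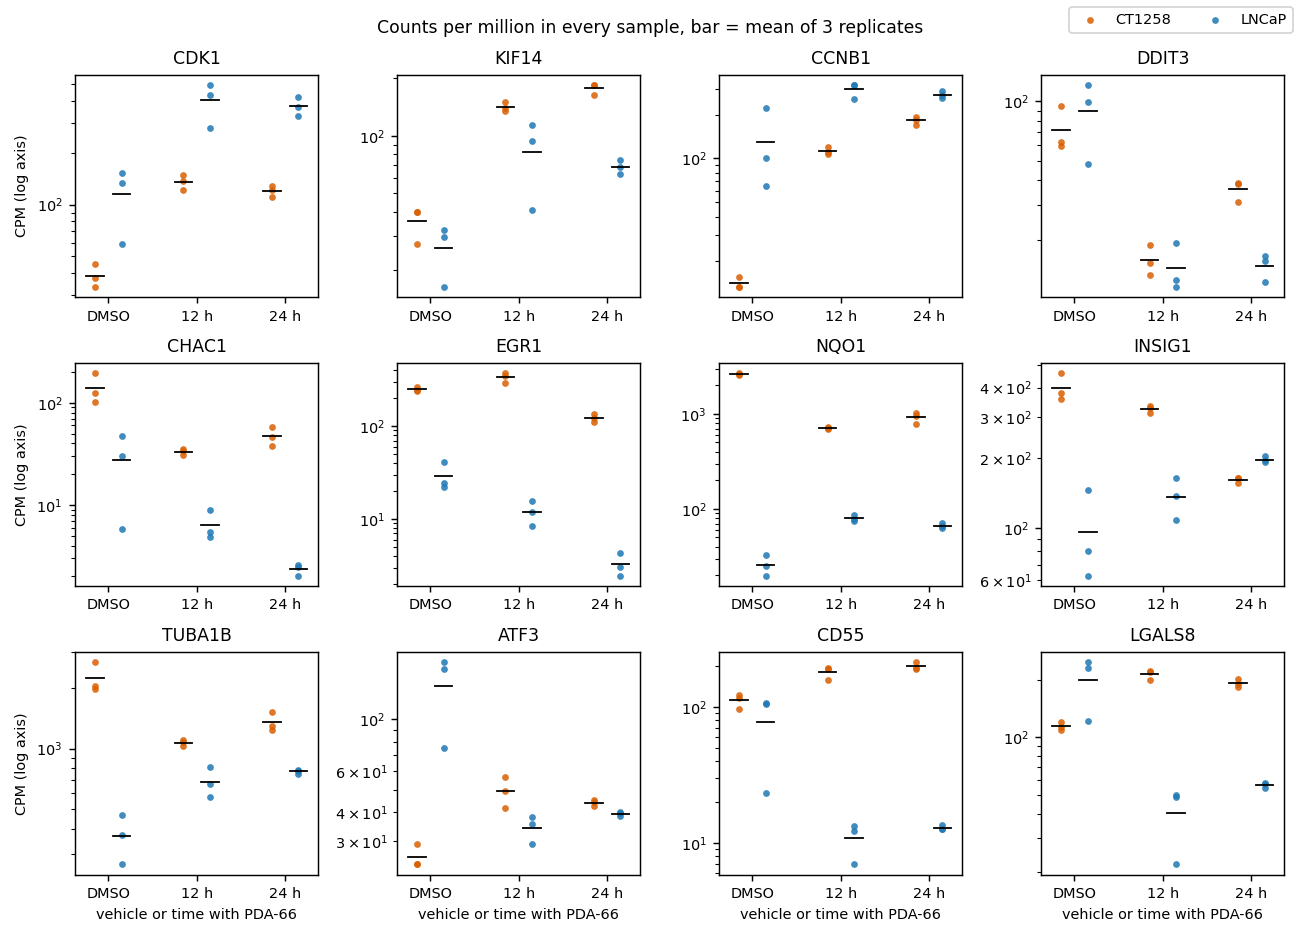
CPM (log axis) of 12 genes in each DMSO, 12 h and 24 h sample of CT1258 and LNCaP. Points are single samples and bars the mean of 3 replicates; levels are not comparable between the cell lines, and what a reader should compare is the step from DMSO within each line, upwards in both for CDK1 and KIF14, downwards in both for DDIT3 and CHAC1, and in opposite directions for NQO1, TUBA1B, ATF3, CD55 and LGALS8.

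Most genes of sterol and fatty acid synthesis fell in the canine cell line. Of 26 tested genes (32 listed), 18 fell and 3 rose in CT1258 after 12 h, and 21 fell and 2 rose after 24 h, compared with 35.4% and 31.8% of all genes that fell. With edgeR's quasi-likelihood test, 0 members were called in LNCaP at either time, where 3.37% and 1.03% of all genes fell, and without the LNCaP 12 h replicate 2, 5 rose after 12 h and 10 after 24 h. The medians were -0.45 and 0.25 after 12 h, and -0.64 and 0.32 after 24 h. The response difference itself was lower in CT1258 for 16 members after 12 h and 17 after 24 h, and for 17 and 21 after the GC and length correction, with 1 and 0 higher both times, compared with 28.4% and 12.0% of all genes called lower before the correction. INSIG1, which holds back sterol synthesis and is itself a SREBP target, went from 380.0, 460.0 and 358 CPM to 328, 335 and 311 CPM and 165, 157 and 164 CPM in CT1258, and from 146, 62.8 and 80.5 CPM to 164, 108 and 138 CPM and 192, 203 and 196 CPM in LNCaP. The CT1258 groups were in separate ranges that went down with time, and LNCaP lay above its controls after 24 h without a call. Its difference after 24 h was the largest of this list, -2.34 ± 0.32 (adjusted p = 1.9e-04). FASN, the fatty acid synthase, differed by -1.82 ± 0.42. MFSD2A, a transporter of lipids outside this list, also had one of the lowest differences of 24 h (-1.98 ± 0.27). Glycolytic genes showed a like pattern, with 14 of the 20 genes of the hypoxia and glycolysis list down in CT1258 at both times and none down in LNCaP, where 5 and 2 fell without the 12 h replicate 2. ALDOC, an aldolase, fell from 69.4, 80.5 and 63.0 CPM to 22.1, 22.9 and 19.5 CPM in CT1258, and LNCaP held 121, 89.2 and 98.0 CPM and 149.8, 129 and 142 CPM (difference -2.17 ± 0.24, adjusted p = 3.1e-05). With the GC and length correction INSIG1, MFSD2A and ALDOC were called down in CT1258 and up in LNCaP after 24 h. For the hypoxia and glycolysis list 10 differences were lower in CT1258 at each time.

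For the other lists, counts of differences are read against 50.4% of all genes called after 12 h (28.4% lower, 22.0% higher) and 23.6% after 24 h (12.0% lower, 11.6% higher). Cytosolic heat shock genes rose in CT1258 for 11 of 14 members after 12 h and in LNCaP for 5, with medians of 1.04 and 0.48, and 7 differences were higher and 3 lower (71.4%). HSP90AA1 and HSPH1, chaperones of this list, rose by 2.01 and 1.91 in CT1258 and by 1.17 and 1.01 in LNCaP. With the GC and length correction 3 differences of this list were higher and 2 lower after 12 h, and those of HSP90AA1 (0.56) and HSPH1 (0.24) were not called. Among the 25 p53 targets, 8 rose and 10 fell in CT1258 after 12 h and 2 rose and 5 fell in LNCaP, compared with 34.8% up and 35.4% down and 5.29% up and 3.37% down over all genes, and 8 differences were higher and 4 lower (48.0%). Lysosome and autophagy genes fell in CT1258 for 10 of 16 members after 12 h and in LNCaP for none, with 8 lower differences and none higher, and after 24 h 6 were lower and none higher. SQSTM1, an autophagy receptor, differed by -1.96 after 12 h and by -0.76, not called, after 24 h. Of the 20 endoplasmic reticulum stress genes 7 differences were higher and 7 lower after 12 h. The lumenal chaperones HSPA5 (-1.44 and -0.12) and CALR (-1.88 and 0.58) fell in CT1258 and were not called in LNCaP, while DNAJB9 fell in LNCaP (-1.40) with 0.07, not called, in CT1258. For immediate early genes 8 differences were higher and 5 lower after 12 h and 3 and 6 after 24 h, and for the 23 genes of ribosome biogenesis 3 and 11 after 12 h and 1 and 2 after 24 h, or 3 and 8 after 24 h without the LNCaP 12 h replicate 2. Androgen receptor and luminal genes had 5 higher and 3 lower differences of 16 after 12 h and 4 of each after 24 h, and the 7 genes of the BCL2 family 3 and 3, then 1 and 2. Of the 12 FOXO targets, 3 differences were higher and 2 lower after 12 h (41.7%) and none was called after 24 h, where 1 was higher and 3 were lower without the LNCaP 12 h replicate 2. In the collagen and matrix list, 1 difference of 12 was higher and 3 were lower after 12 h, and 2 and 2 after 24 h. Of the 5 aryl hydrocarbon receptor genes 1, NQO1, was called lower at each time, while 3 were lower after 12 h without the LNCaP 12 h replicate 2, and 3 and 2 with the GC and length correction. Of the 4 cytokine genes 1 was higher and 2 were lower at both times. Both tested CDK inhibitors, CDKN2C and CDKN3, had lower differences after 12 h (-1.57 and -1.23) and 1 of them after 24 h, that of CDKN2C being -0.88 and not called after the GC and length correction.

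Some of the largest differences came from genes whose level in CT1258 controls was low. RPL31, a ribosomal protein gene, stood at 5.60, 6.16 and 5.41 CPM in CT1258 controls and 47.4, 55.2 and 40.9 CPM after 24 h, compared with 740.2, 604 and 704 CPM and 686, 643 and 673 CPM in LNCaP. ETF1, the release factor that ends translation, went from 13.0, 16.5 and 13.4 CPM to 99.98, 106 and 93.1 CPM in CT1258 after 12 h, and LNCaP held 301, 269.7 and 259 CPM and 277, 215 and 255 CPM. MAPK3, the kinase ERK1, went from 2.53, 1.44 and 2.09 CPM to 16.3, 15.7 and 17.8 CPM in CT1258 after 24 h and was at 51, 45.5 and 53.9 CPM and 55.3, 51 and 50.7 CPM in LNCaP. In all 3 genes the CT1258 groups were far apart while the LNCaP groups overlapped. The difference was 3.09 ± 0.23 for RPL31 and 2.97 ± 0.29 for MAPK3 after 24 h, and 2.96 ± 0.18 for ETF1 after 12 h. RPL31 has near-identical copies in the genome, so its reads are uncertain in both lines. The lowest differences of 12 h rested in part on 1 library. PTMS, parathymosin, had 169, 3362 and 205 CPM in the LNCaP 12 h samples, and without replicate 2 its LNCaP response went from 2.46 to -0.28 and its difference from -4.07 to -1.34. ROMO1, a mitochondrial membrane gene, and C14orf80 had 42.6, 349.6 and 54.6 CPM and 37.1, 293 and 42.8 CPM there, and differences of -3.55 and -3.53 that became -1.93 and -1.90.

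Between 12 h and 24 h the gap between the lines moved for few genes. The change of the response difference from 12 h to 24 h was called for 88 of 8433 genes (1.04%), 34 upwards (0.403%) and 54 downwards (0.640%), and 1564 genes passed 0.05 without adjustment. The DMSO samples have no weight in this contrast but enter the spread of the fit. The count of called genes was 400 without the LNCaP 12 h replicate 2 and 798 without replicate 1, and between 10 and 28 without any single CT1258 sample other than DMSO replicate 2. Without LNCaP DMSO replicate 1 it was 159. PMEPA1, an inhibitor of TGF-beta and androgen signaling, changed by -1.78 ± 0.19 (adjusted p = 6.1e-04). CT1258 went down between the times and LNCaP up, with 57.9, 56.1 and 45.3 CPM after 12 h and 23.6, 20.6 and 19.3 CPM after 24 h, compared with 231, 258 and 242 CPM and 338, 332 and 326 CPM in LNCaP. Of the sterol and fatty acid list, INSIG1 (-1.53 ± 0.32, adjusted p = 0.037), the desaturase SCD (-1.43 ± 0.29, adjusted p = 0.035) and MSMO1 (-0.91 ± 0.19, adjusted p = 0.038) moved in the same direction.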

How the data were processed

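RNA-seq counts per gene were taken as deposited. Per the labels and the study's methods, poly(A) RNA with an integrity number over 7 had been sequenced as single reads. The authors had mapped human reads to hg19 with STAR (2.3.1s) and canine reads to CanFam3.1 with BWA (version not given in the sources used here) and used edgeR (3.14.0). Whether counting used strand, and how reads matching several places were treated, is not given in the sources used here.

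From these counts, R (4.3.3) with edgeR (4.0.16) and limma (3.58.1), with DESeq2 (1.42.0) as an alternative, and Python (3.11.15) were used. Library totals came from each whole table. Depth was 7203534 to 20976950 counts per sample. The 9 samples of each line were fitted alone (filterByExpr, TMM, quasi-likelihood F test, two-sided), and joined genes that passed the filter in both lines were fitted together with 1 term per group and TMM factors from each line. Contrasts were Benjamini-Hochberg adjusted over all genes tested, with a threshold of 0.05. CPM use TMM-scaled library sizes. Joining by symbol left out 616 genes passing in CT1258 and 3125 passing in LNCaP that the other table does not name, among them 405 canine genes listed under protein entry names.

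Genes named were the 6 highest and 6 lowest response differences per time, among genes called, with a mean of at least 10 CPM in each line and without overlap of the treated samples relative to their controls. To these were added the 6 genes with the largest smaller response in each class of shared or opposite genes, and any list member; results of some of these genes are not reported here. The genes and lists were chosen with earlier results of these data known. Sequences came from RefSeq on GRCh38.p14; positions and overlaps of human genes came from GRCh37; canine positions were not analysed here. Fits were tested on simulated data. Alternatives covered scaling, filters, tests, thresholds, the replicate number as a block and leaving out each sample; a GC and length correction was added after seeing the data.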

Additional observations from a re-analysis of the deposited data

Results flagged for a closer look

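The interaction test of edgeR asks directly whether the cell lines respond differently, and the genes of the report that passed it (Benjamini-Hochberg adjusted p under 0.05) are collected here with the response of CT1258 minus that of LNCaP on the log2 scale. In all, 4251 genes passed after 12 h and 1992 after 24 h, and for 88 genes the difference itself changed between the times.

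After 12 h, CD55 (3.52), RPL31 (3.29), LGALS8 (3.21), AMOTL2 (3.20), ETF1 (2.96) and ATF3 (2.94) had the highest differences. PTMS (-4.07), SPC24 (-4.03), OSGIN1 (-3.55), ROMO1 (-3.55), C14orf80 (-3.53) and NQO1 (-3.51) had the lowest, and for PTMS, ROMO1 and C14orf80 the value moved by over 1.5 times, to -1.34, -1.93 and -1.90, without the LNCaP 12 h replicate 2. The leading opposite genes ADD3 (2.72), ANKRD29 (2.44), MALAT1 (2.71) and IMPACT (1.98) were higher in CT1258. The opposite genes ZDHHC12 (-3.06), XRCC1 (-2.63), WDR34 (-3.10) and CARHSP1 (-2.28) were lower. TSC22D3, shared downwards, had fallen further in LNCaP (1.43).

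After 24 h, CD55 (3.41), RPL31 (3.09), MAPK3 (2.97), ETF1 (2.63), CCNB1 (2.62) and ATF3 (2.58) were highest. NQO1 (-2.87), INSIG1 (-2.34), ALDOC (-2.17) and MFSD2A (-1.98) were among the lowest. Of the shared falls, CHAC1 (1.98), TSC22D3 (1.5) and EGR1 (2.11) were larger in LNCaP. The opposite genes CCNG1 (1.74), LGALS8 (2.56), ANKRD29 (1.76) and C7orf63 (2.32) were higher in CT1258, and TUBA1B (-1.79), SCFD2 (-1.41), SERPINE2 (-1.64), MCM5 (-1.90) and KANK2 (-1.83) were lower. Groups of 3 samples are too small for a test of single outlying samples.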

How the results depend on the processing

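Counts of genes with a response difference after 12 h and 24 h and between the times were 4251, 1992 and 88; counts of shared and of opposite genes were 341 and 167 after 12 h and 120 and 32 after 24 h. Other scaling (DESeq2's size factors, library totals), a 1 CPM filter and CT1258 controls thinned to the depth of the treated samples kept all 7 counts within 1.5 times. TMM over all samples was run for the counts of response differences only, and kept these within 1.5 times. Without a filter 38 genes changed between the times, and 46 when each line was fitted apart. The likelihood ratio test gave 238 between the times, 392 opposite after 12 h, and 339 shared and 92 opposite after 24 h. DESeq2 gave 382 between the times, 530 shared and 441 opposite after 12 h, and 366 and 108 after 24 h. Voom with sample weights gave 4768 after 24 h, 2835 between the times, 1741 shared and 1018 opposite after 12 h, and 1466 and 948 after 24 h. At an adjusted p under 0.001 there were 744, 172 and 1 differences and 0 shared or opposite genes by the edgeR test. With a log2 change of at least 1 there were 2520 and 989 differences, 109 shared and 22 opposite genes after 12 h, and 51 and 4 after 24 h. The GC and length correction gave 683 between the times, 978 shared and 532 opposite after 12 h, and 621 and 235 after 24 h. With this correction and without the LNCaP 12 h replicate 2 there were 3572 after 24 h, 937 between the times, 1372 shared and 696 opposite after 12 h, and 1226 and 658 after 24 h. The cause of these shifts was not tested.

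Same-numbered replicates did not deviate together: 1 of 9 pairs had a correlation over 0.1 in each line, from -0.189 to 0.153 in CT1258 and from -0.420 to 0.185 in LNCaP, so the numbers are taken as names. With the replicate number as a block, 3432 genes differed after 12 h, 1207 after 24 h and 6 between the times; 138 were shared and 37 opposite after 12 h, and 2 and 2 after 24 h.

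Leaving out each sample gave 3415 to 5048 differences after 12 h, 1239 to 4274 after 24 h and 10 to 798 between the times. Shared genes ranged from 89 to 1289 after 12 h and 0 to 1017 after 24 h, and opposite genes from 22 to 476 and from 0 to 544. After 24 h, differences fell to 1249 without CT1258 24 h replicate 3 and 1239 without LNCaP DMSO replicate 2 and were 4274 without LNCaP 12 h replicate 2. Opposite genes of 12 h were 460 without LNCaP 12 h replicate 1. Without LNCaP DMSO replicate 1, 253 genes were shared and 94 opposite after 24 h. No gene named for its size of change changed the sign of a called value under any alternative, but the list member CDC20 fell by 0.33 in CT1258 after 12 h and rose by 0.27 with the GC and length correction; of 790 values of differences 785 kept direction and call, as did 1469 of 1482 values of CT1258 responses and 1209 of 1482 of LNCaP responses. Depth limits genes under 10 CPM most.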

Other observations

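Interferon-stimulated genes did not move as one group. Of 12 tested members (24 listed), 8 rose in CT1258 after 12 h and 1 in LNCaP, with medians of 0.84 and -0.04, where 34.8% and 5.29% of all genes rose. After 24 h 5 rose and 5 fell in CT1258, where 31.0% of all genes rose and 31.8% fell. In LNCaP 1 rose after 24 h, compared with 1.51% of all genes. IFIT3, an antiviral effector, rose in CT1258 (2.23 after 12 h, 1.54 after 24 h) with -0.40 and -0.76, not called, in LNCaP, and the differences were 2.64 ± 0.58 and 2.31 ± 0.60. OAS3, a sensor of double-stranded RNA, went the other way: it rose in LNCaP, from 27.4, 18 and 13.7 CPM to 66.1, 75.6 and 69.8 CPM after 12 h and 53.9, 49.4 and 51.8 CPM after 24 h, and the differences were -1.91 ± 0.27 and -1.93 ± 0.27 (edgeR, adjusted p = 1.1e-04 and 2.5e-04). RIG-I, listed as DDX58, rose in CT1258 at both times (0.97 and 0.42) with differences of 1.16 and 0.81. Of the NF-kappaB genes, TNFAIP3 rose in CT1258 (1.15 after 12 h) and the NF-kappaB inhibitor NFKBIA fell there after 24 h (-1.04), with differences of 2.12 and -1.62.

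Matrix genes also split. SPARC, a secreted matrix protein, fell in CT1258 (-1.07) and rose in LNCaP (1.70) after 12 h (difference -2.76), while LOX, which cross-links collagen, rose in CT1258 (0.55) and fell in LNCaP (-1.73; difference 2.28). CRYAB, a small heat shock protein, differed by 2.39 ± 0.31 after 24 h, rising by 1.66 in CT1258 with -0.73, not called, in LNCaP.

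KLK2, a prostate kallikrein under androgen control, was picked out after its values were seen. In CT1258 it had 218, 67 and 72 counts in the controls and 0 in all 6 treated libraries, a mean of 5.87 CPM of totals against a limit of 0.416 CPM that 3 counts set in the shallowest treated library, so that it was at least 14.1-fold lower. In LNCaP KLK2 was read in all samples, with 293, 255 and 389 CPM in the controls and 392, 359 and 380.4 CPM after 24 h, and no change was called. It was the 1 gene in either line that was absent from every treated library and present in every control at this level.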
